A study of Mus musculus with 7 samples.

Results

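The libraries described here are the 3 enlarged spleens of Brca1 mutant mice, chosen by the genotype in the sample labels, out of 7 RNA-seq libraries in the series. The mice carried the genotype Vav1-iCre;Brca1F22-24/F22-24 and were 2 to 3 months old. Total RNA was taken from each whole spleen with Trizol and each library counts as 1 spleen, called mutant 1, mutant 2 and mutant 3 below. All 3 mice share the Cre transgene, the altered Brca1 allele and the enlarged spleen, so these cannot be told apart, and no wild-type library was used for comparison. Vav1-iCre drives Cre in blood cells, so stromal cells of the spleen keep an intact allele as far as Cre acts in blood cells alone. The labels do not give sex, littermates or pooling, and counts summed over a gene cannot show whether exons of Brca1 were lost.

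The spleen filters blood in its red pulp, where macrophages take up old red cells, and houses B and T lymphocytes in its white pulp. In mice it also makes red cells, granulocytes and platelets, which brings erythroid and myeloid precursors into whole-spleen RNA. Immature T cells normally develop in the thymus, where Notch1 signalling, the Rag1 and Rag2 recombinase and the pre-T cell receptor chain Ptcra drive them through their first stages. Brca1 protects replicating DNA and repairs breaks by homologous recombination.

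The promoters of 3 genes are printed because the results turn on their levels: Rag1, high in every mutant spleen; Ptcra, low in mutant 1 alone; and Klf1, an erythroid transcription factor, high in mutant 1. Each run is the strand of the gene, 5′ to 3′, and ends 1 base before the RefSeq start (GRCm38.p6), or for Klf1 before the first annotated GENCODE exon. Capitals mark matches on either strand to GTGGGAA (letters bound by the Notch partner RBPJ), TGTGGT (Runx factors), AGATAA and GATAA (both for GATA factors, every AGATAA holding a GATAA).

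Rag1, chr2:101649533-101649782, minus strand: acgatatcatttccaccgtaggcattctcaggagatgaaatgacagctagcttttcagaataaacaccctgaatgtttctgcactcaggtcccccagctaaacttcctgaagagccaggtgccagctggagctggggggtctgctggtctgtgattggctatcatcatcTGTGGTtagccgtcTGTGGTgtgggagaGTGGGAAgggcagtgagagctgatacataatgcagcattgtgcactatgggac

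Ptcra, chr17:46763713-46763962, minus strand: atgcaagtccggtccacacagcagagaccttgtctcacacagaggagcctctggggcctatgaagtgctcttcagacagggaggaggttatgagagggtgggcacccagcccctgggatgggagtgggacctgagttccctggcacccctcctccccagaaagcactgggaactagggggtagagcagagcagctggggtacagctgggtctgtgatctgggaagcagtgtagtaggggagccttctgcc

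Klf1, chr8:84901732-84901927, plus strand: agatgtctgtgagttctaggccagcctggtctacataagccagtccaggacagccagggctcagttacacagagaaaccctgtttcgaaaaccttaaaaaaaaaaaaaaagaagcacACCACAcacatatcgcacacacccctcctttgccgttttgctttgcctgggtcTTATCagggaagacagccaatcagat

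Rag1 held 2 matches to TGTGGT and 1 to GTGGGAA. Klf1 held 1 to TGTGGT and 1 to GATAA, both on the opposite strand, and none to AGATAA. Ptcra held no match to any of the 4. The first search used 3 motifs. GATAA was added after AGATAA was seen to have no match before Klf1, so its share below was reached by a second choice of letters. Over the 250 bases before the start, AGATAA lay before 6 of the 13 erythroid list genes that stood at least 4-fold above both other libraries in mutant 1 and had a promoter entry, before 6 of all 23 erythroid list genes with an entry, and before 11.4% of all 27025 genes. The looser GATAA lay before 10 of the same 13 genes, 15 of the 23 and 25.5% of all genes. GTGGGAA lay before 4 of 19 T lineage genes, 2 of 17 Notch pathway genes, 2 of 15 immature T cell genes, 1 of the 23 erythroid genes and 6.18% of all genes. TGTGGT lay before 4 of 19 T lineage genes, none of 17 Notch pathway genes, 2 of 15 immature T cell genes, 5 of the 23 erythroid genes and 15.9% of all genes. In all, 24 such shares were computed, 4 motifs in 6 gene sets. A match describes letters and is not a binding site, and no match says only that these letters are not in this window.

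The libraries held 51680976, 30660980 and 35670644 counts over 24062 genes. Levels are CPM, which is counts scaled to the size of the library, scaled with TMM factors from these 3 libraries, and levels of different genes are compared only per kilobase of exon, in TPM. A count of 0 allows up to 3 counts, or 0.0563, 0.0960 and 0.0883 CPM, a limit for counting error only. A mean of 1 CPM or more was reached by 12769 genes, and 11709 had 1 CPM or more in every library. Mutant 1 carried Y-linked transcripts, with Ddx3y at 115, 0.0640 and 0.118 CPM in mutants 1, 2 and 3. Xist, which is made from the inactive X chromosome of females, stood at 1.45, 1995 and 1509 CPM. Sex therefore separates mutant 1 from the other libraries, and its part in any difference of mutant 1 was not tested. With n = 3 and 1 group, values below are descriptions and no p-value is given.

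By mean level per kilobase, the highest genes were globin and those of the translation machinery. Globin led in mutant 1 alone, and Eef1a1 stood above it in mutants 2 and 3. The beta globin Hbb-bs had the highest mean, 20181 ± 18318 TPM (SD, n = 3), with 41322, 9031 and 10188 TPM. Its counts are identical to those of Hbb-b1, with which it overlaps, so the copies cannot be told apart. Eef1a1, the translation elongation factor, came second at 15402, 19865 and 19608 TPM. Rplp1 (12846, 12514 and 14519.5 TPM) and Rps3a1 (7911, 10242 and 9430.2 TPM) are ribosomal proteins. The chromatin-associated protein Ptma stood at 6546, 11515 and 9363 TPM. The globins were highest in mutant 1, whereas Eef1a1 and Ptma were lowest there. Of the 100 genes of highest mean level per kilobase, 48 were cytosolic ribosomal protein genes, and 40 were when genes were ranked without length. The rankings shared 74 genes.

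**Figure D1:**
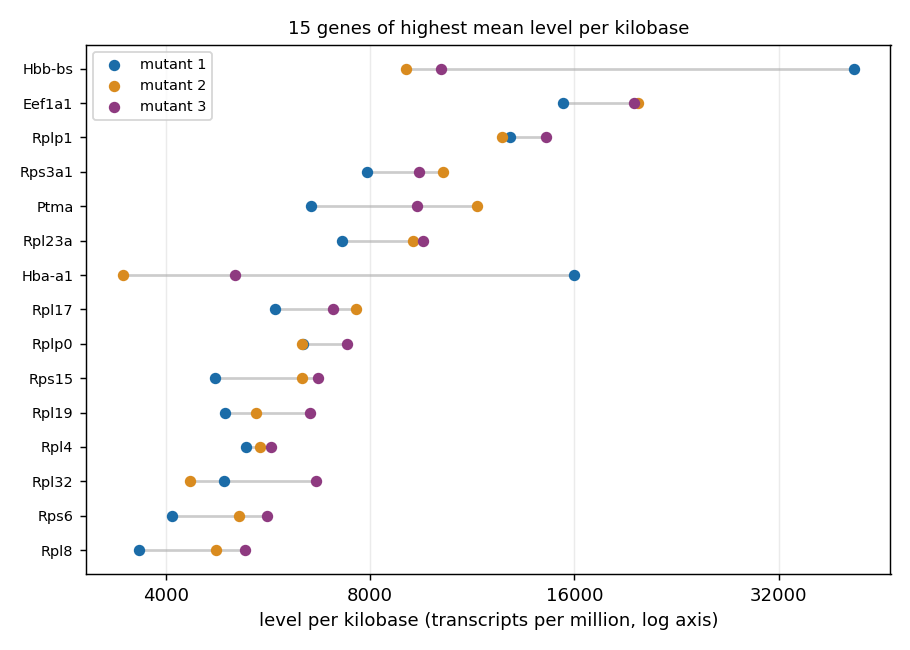
Level per kilobase (TPM, log axis) of the 15 genes with the highest mean in the mutant spleens, with 1 point per library joined by a grey line. Of genes with identical counts only 1 is drawn, and genes with clone names are left out. The globins Hbb-bs and Hba-a1 spread most, with mutant 1 highest at 41322 and 15982 TPM, while the ribosomal protein genes lie close together.

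T lineage genes were high in all 3 spleens. The transcription factor Tcf7, which starts the T cell programme, stood at 1235, 2226 and 2445 CPM and ranked 46 of all genes per kilobase. The surface protein Thy1 stood at 563, 1275 and 1385 CPM. The kinase Lck, which carries the first signal of the T cell receptor, stood at 432, 1065 and 842 CPM. For each of these genes mutant 1 was lowest. Of the 28 T lineage genes, 27 reached 1 CPM in every library, as did 11709 of the 12769 genes of mean 1 CPM or more. The list's median level per kilobase was 80.4, 128 and 118 TPM, against 21.5, 20.7 and 19.2 TPM over those 12769 genes. Mutant 1 was the lowest library for 20 of the 28, and for 41.1% of all genes. Both coreceptors were present, with Cd4 at 81.2, 112 and 53.6 CPM and Cd8a at 300.3, 243 and 454 CPM. In bulk RNA, more cells of a type and more RNA per cell cannot be told apart.

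Genes of immature T cells were present in every spleen too, with larger differences between them. Rag1, a subunit of the enzyme that cuts antigen receptor genes, stood at 173, 531 and 568 CPM, and its partner Rag2 at 4.02, 6.75 and 26.3 CPM. Dntt, which adds bases at the joins, stood at 295, 691 and 49.8 CPM. Rag1 was lowest in mutant 1, Rag2 was highest in mutant 3 and Dntt was lowest in mutant 3. Ptcra stood at 4.09, 135 and 143 CPM. Mutant 1 thus held little Ptcra beside clear Rag1 and Dntt. All 22 genes of the list reached 1 CPM in every library, as did 11709 of all 12769 genes of mean 1 CPM or more. Of the 22, 2 lay within 1.5-fold across the libraries, against 44.8% of those 12769 genes. Dtx1, Notch3 and Notch1 are described next with the pathway they belong to.

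Notch1, a receptor needed for precursors to become T cells, stood at 473, 1184 and 844 CPM, and Notch3, a receptor of the same family, at 49.1, 154 and 245 CPM. Several genes that Notch is known to switch on were lowest in mutant 1, though the pathway list was not so gene by gene. Of its 21 genes of mean 1 CPM or more, 8 were lowest and 10 highest in mutant 1, against 41.1% and 36.5% of all genes. The median difference of mutant 1 from the mean of the others was 0.10 on the log2 scale, against -0.04 over all genes. The list median itself was lowest in mutant 1, at 4.07, 5.21 and 5.07 on the log2(CPM + 0.5) scale. Dtx1 stood at 145, 364 and 1095 CPM. Nrarp, a feedback inhibitor, stood at 7.45, 36.7 and 250.2 CPM. Heyl stood at 12.9, 123 and 222 CPM and Hes1 at 19.3, 55.0 and 51.7 CPM. Mutant 1 was lowest for these 4, and mutant 3 was highest for all but Hes1. Hey1, also switched on by Notch, was low and differed the other way, at 1.73, 1.25 and 1.35 CPM. Il2ra, the interleukin 2 receptor chain of early T cell precursors, followed with 26.0, 212 and 1105 CPM. The ligands were low: Dll1 stood at 13.7, 8.77 and 7.04 CPM and Jag1 at 7.96, 5.60 and 3.18 CPM. The core factor Rbpj was more even at 90.2, 80.7 and 63.9 CPM. Of the 21 genes, 5 lay within 1.5-fold, against 44.8% of all genes. By the rule given with the spread, 2 were apart below in mutant 1 and 1 was apart above in mutant 3. The shares of all genes were 0.321% and 0.799%.

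Among genes known from T cell leukaemia, Myc stood at 257, 413 and 425 CPM and Myb at 172, 409 and 301 CPM. Trp53 was even, at 214, 210.0 and 225 CPM. Ikzf1, the Ikaros transcription factor of lymphocytes, was lowest in mutant 2, at 612, 192 and 626 CPM. Tlx3 was at 0 in mutants 2 and 3 and Hoxa10 was at 0 in all 3 libraries, both at or near the floor.

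Genes of cell division were even across the libraries. Mki67, a protein of dividing cells, stood at 1923, 1581 and 1539 CPM, Top2a at 973, 1013 and 756 CPM, the replication clamp Pcna at 682, 969.9 and 708 CPM, and Mcm7 of the replicative helicase at 473, 539.6 and 595 CPM. The highest and lowest library lay within 1.5-fold for 25 of 32 DNA replication genes, 26 of 32 mitosis genes and 27 of 31 homologous recombination and Fanconi genes, against 44.8% of all 12769 genes. The share of genes within 1.5-fold differed by level: it was 22.4% at a mean of 1 to 5 CPM, 58.1% at 100 to 500 CPM and 49.8% at 500 CPM and above. The T lineage list, also high, had 3 of 28 within that range and the erythroid list 0 of 37. Ribosomal protein genes had 47 of 64 and oxidative phosphorylation genes 24 of 30. These lists, those of cell division included, still had an order between libraries. Mutant 2 was highest for 19 of 32 DNA replication genes and 20 of 32 mitosis genes, and lowest for 0 of each. For the 31 homologous recombination and Fanconi genes it was highest for 15 and lowest for 7. Of all genes, 27.2% were highest and 27.2% lowest in mutant 2. Mutant 1 was lowest for 22 DNA replication and 16 mitosis genes, against 41.1% of all genes. Of the 64 ribosomal protein genes, 58 were highest in mutant 3 and 52 lowest in mutant 1. For the 30 oxidative phosphorylation genes these counts were 21 and 20, against 36.2% and 41.1% of all genes.

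Brca1 itself (chromosome 11, 101488764 to 101551955, mm10) stood at 61.5, 42.8 and 38.6 CPM, 47.6 ± 12.2 (SD, n = 3). Its partner Bard1 stood at 45.3, 60.3 and 39.6 CPM and Brca2 at 55.2, 47.2 and 60.5 CPM. Vav1, whose promoter drives the transgene, stood at 106, 149.8 and 147 CPM. The highest library stood 1.59-fold above the lowest for Brca1 and 1.42-fold for Vav1. The 10 genes of smallest spread at a mean of 50 CPM or more included Tollip, at 73.4 CPM in each library, Phf12 and Man1a2.

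**Figure D2:**
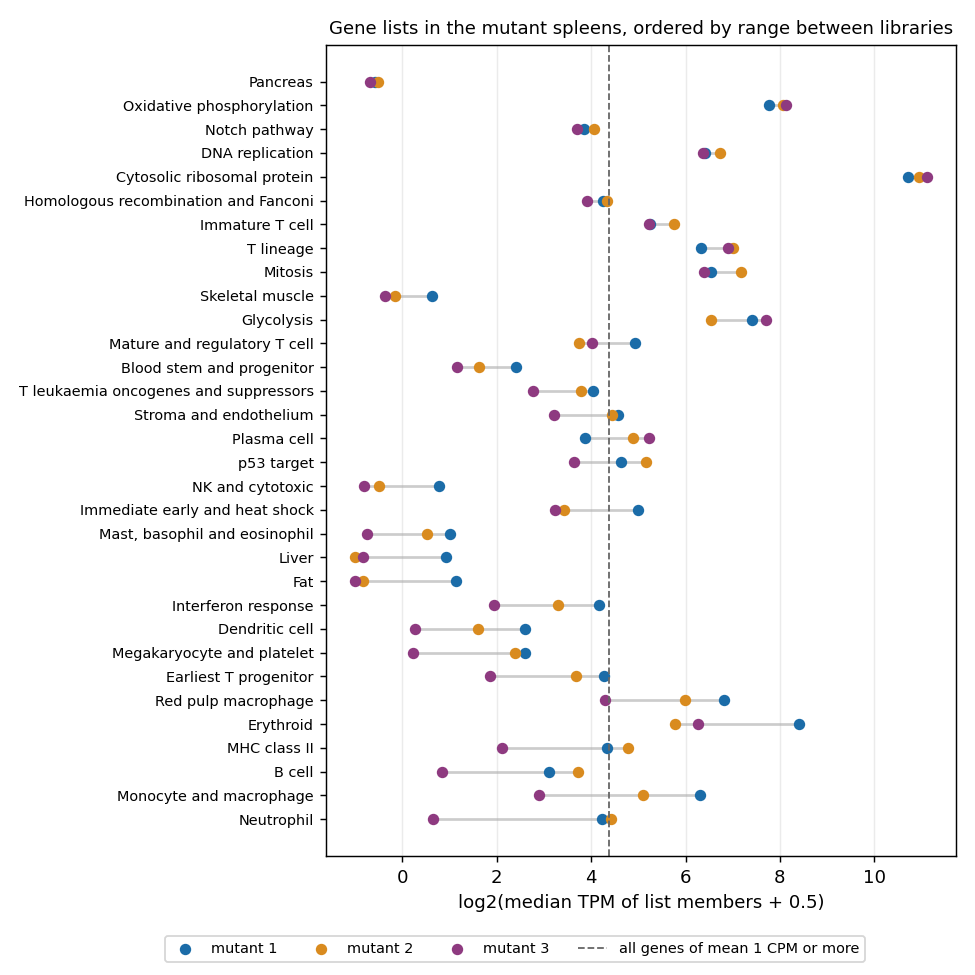
Median level per kilobase of each gene list in each mutant library, as log2(median TPM + 0.5), ordered from the smallest range between libraries at the top to the largest at the bottom, with a dashed line at the median of all genes of mean 1 CPM or more. The oxidative phosphorylation, Notch pathway and DNA replication lists lie at the even end, and the neutrophil, monocyte, B cell, MHC class II and erythroid lists at the uneven end. An even median does not mean even members, as in the Notch pathway. On the log2(CPM + 0.5) scale the medians of that list were not even, at 4.07, 5.21 and 5.07.

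Across all genes the median SD of log2(CPM + 0.5) was 0.34, with an interquartile range from 0.20 to 0.59. Counting alone would give a median SD of 0.0455, and 97.4% of genes exceeded their own counting SD. The common biological coefficient of variation from edgeR was 0.483, and 0.393 without mutant 1. Mutants 2 and 3 were the most alike, with a median absolute log2 difference of 0.29 and 444 genes at least 4-fold apart. Mutants 1 and 2 differed by 0.41 (618 genes), and mutants 1 and 3 by 0.50 (1006 genes). A gene is called apart in a library where it lies at least 4-fold above both others or 4-fold below both others.

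**Figure D3:**
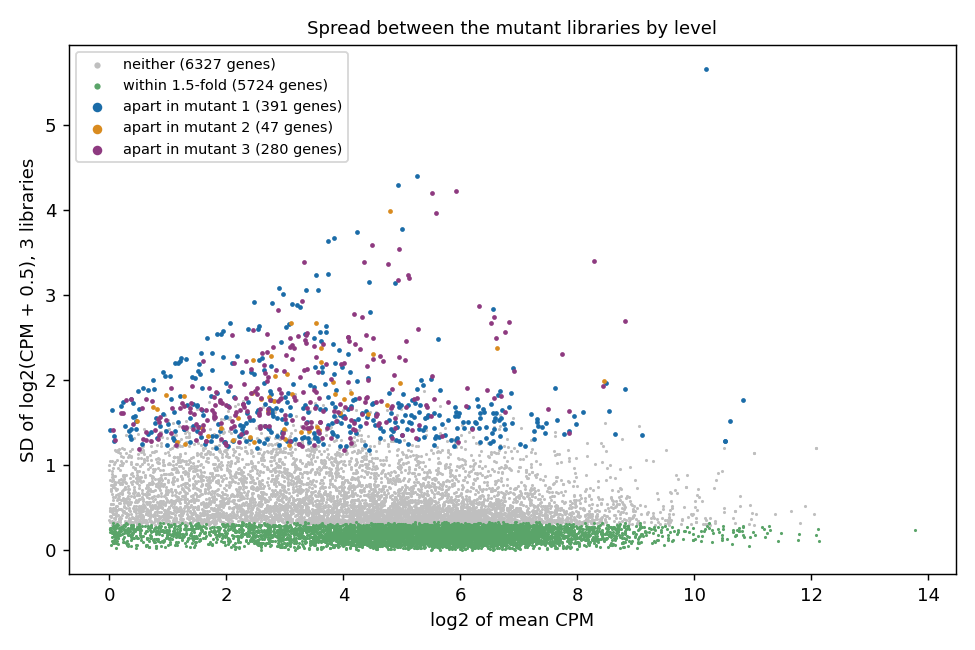
SD of log2(CPM + 0.5) over the 3 libraries against log2 mean CPM, 1 point per gene, coloured by whether the libraries lie within 1.5-fold or 1 library is at least 4-fold from both others. The 19 genes apart in 2 libraries are drawn under the higher-numbered one, and Xist is the point at the top right.

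Mutant 1 held 360 genes apart above (2.82% of 12769) and 41 apart below (0.321%). Of the 360, 42 stood in the lists, erythroid genes above all. The lists hold 688 of all 24062 genes, those under a mean of 1 CPM included. Of the 37 erythroid genes, 21 were apart above in mutant 1 and all 37 were highest there, against 36.5% of all genes, with list medians of 9.11, 6.18 and 6.93 on the log2(CPM + 0.5) scale. The anion exchanger of the red cell membrane, Slc4a1, stood at 3461, 467 and 737 CPM. Alas2, the first enzyme of haem synthesis in red cells, stood at 1169.9, 199 and 279.9 CPM, and Klf1 at 216, 30.1 and 39.9 CPM. Globin genes took 3.27%, 0.684% and 0.839% of all counts. The transcription factors Tal1 (393, 56.6 and 76.9 CPM), Lmo2 (203, 36.2 and 41.2 CPM) and Gfi1b (99.5, 13.3 and 16.4 CPM) were apart above in mutant 1 as well. All 3 stand in the list of early T progenitors, Tal1 also in the erythroid list, and red cell precursors express them too. Tal1 and Lmo2 were also the most variable members of the T cell leukaemia list.

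Most genes apart above in mutant 1 had no place in the lists. Hecw1, a ubiquitin ligase, stood at 55.8, 0.0640 and 0.206 CPM and Sec16b at 94.7, 0.704 and 0.383 CPM. Heart muscle genes were detected in mutant 1 and barely elsewhere: in a set of 14 chosen after Myh6 was seen, 9 were apart above, and the set summed to 124, 2.37 and 2.33 CPM. Myh6, the heart myosin heavy chain, stood at 22.4, 0.0640 and 0.0589 CPM, and Myl2, its ventricular light chain, at 12.5, 0.0640 and 0 CPM. Alb, of the liver list, stood at 11.2, 0 and 0.118 CPM and the fat gene Adipoq at 2.12, 0.128 and 0.0883 CPM. Of the pancreas list, Prss1 and Ins2 were at 0 in all 3 libraries, while Cela1 was apart above in mutant 1 at 54.9, 8.55 and 6.86 CPM. The part of other tissues in the level of any gene was not tested. Below in mutant 1, beside Xist, Ptcra, Il2ra, Heyl and Nrarp, were Fbp1, an enzyme of glucose synthesis, at 0.525, 18.7 and 83.5 CPM, Bex1 at 0.338, 22.4 and 16.3 CPM and Prdm16 at 1.09, 22.1 and 27.5 CPM.

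Mutant 2 held the fewest genes apart, 29 above (0.227%) and 27 below (0.211%). Ly6k stood at 0.338, 82.7 and 0.0883 CPM and the galectin Lgals7 at 2.31, 32.0 and 0.353 CPM. Below, the chemokine receptor Ccr9, which guides T cell precursors to the thymus, stood at 178, 7.84 and 109.5 CPM, and Cd163l1 at 459, 45.6 and 547 CPM. Cd7, of the T lineage list, stood at 8.30, 0.672 and 11.0 CPM. Of the 5 genes lowest in mutant 2 relative to both others, Wipf3, Scrn1 and Plekha8 lie near each other on chromosome 6, between 54452883 and 54645822. Wipf3 stood at 8.93, 0.192 and 72.6 CPM, Scrn1 at 7.51, 0.128 and 85.0 CPM and Plekha8 at 18.4, 1.86 and 23.5 CPM. Fkbp14, between Scrn1 and Plekha8, did not share the difference and stood at 3.58, 2.95 and 4.95 CPM.

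Mutant 3 held 102 genes apart above (0.799%) and 178 apart below (1.39%). Above were genes of the desmosome, the junction that joins epithelial and heart cells: Dsg2 at 0.507, 0.288 and 136 CPM, Dsp at 1.41, 0.256 and 180.3 CPM, and Dsc2 at 0.450, 1.18 and 143 CPM. In a set of 15 desmosome genes chosen after these were seen, 7 had a mean of 1 CPM or more, of which 4 were apart above in mutant 3, the fourth being Dsg1c at 0, 0 and 3.65 CPM. Pkp2 was apart above in mutant 1 instead, at 8.20, 0.160 and 0.236 CPM, and Jup was lowest in mutant 3, at 59.3, 34.7 and 10.5 CPM. Stra6, a retinol transporter, stood at 0.544, 0.288 and 66.6 CPM, the chemokine Cxcl14 at 0.0188, 0.0320 and 30.1 CPM and the imprinted transcript H19 at 4.67, 3.91 and 108 CPM. The heart genes of the set chosen for mutant 1 were not among them, with Myl2 at 0 CPM in mutant 3. That set did not hold every muscle gene, and the myosin light chain Myl4 was apart above in mutant 3, at 2.48, 3.68 and 17.4 CPM. Glycolysis genes were highest in mutant 3 for 16 of 19 members, against 36.2% of all genes, with list medians of 7.07, 7.32 and 8.37 on the log2(CPM + 0.5) scale. The medians per kilobase, 170.0, 93.1 and 208 TPM, also put mutant 3 highest but mutant 2 lowest. Pkm, the last enzyme of the pathway, stood at 699, 1099 and 2177 CPM and Ldha, which makes lactate, at 595, 1175 and 1385 CPM. None of the 19 was apart.

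Of the 178 genes apart below in mutant 3, 52 stood in the lists, chiefly those of myeloid and B cells, beside 688 of all 24062 genes. Of 18 neutrophil genes of mean 1 CPM or more, 14 were apart below there and 17 were lowest there, against 1.39% and 31.7% of all genes, and the other 3 list genes in the table lay under that mean. S100a8 stood at 122, 159 and 4.77 CPM, the granule proteins Ngp at 97.8, 137 and 3.27 CPM and Ltf at 50.8, 53.1 and 0.618 CPM, and Mpo at 25.5, 34.0 and 0.618 CPM. Of 10 MHC class II genes, which present antigen to helper T cells, 8 were apart below, with Cd74 at 178, 171 and 13.4 CPM and H2-Aa at 66.3, 65.8 and 5.18 CPM. Of 20 B cell genes, 8 were apart below, with Ms4a1 at 11.4, 23.4 and 0.972 CPM. With a pseudocount of 2 CPM these counts were 9, 4 and 3. The antibody joining chain Igj stood at 131, 205 and 6.18 CPM.

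**Figure D4:**
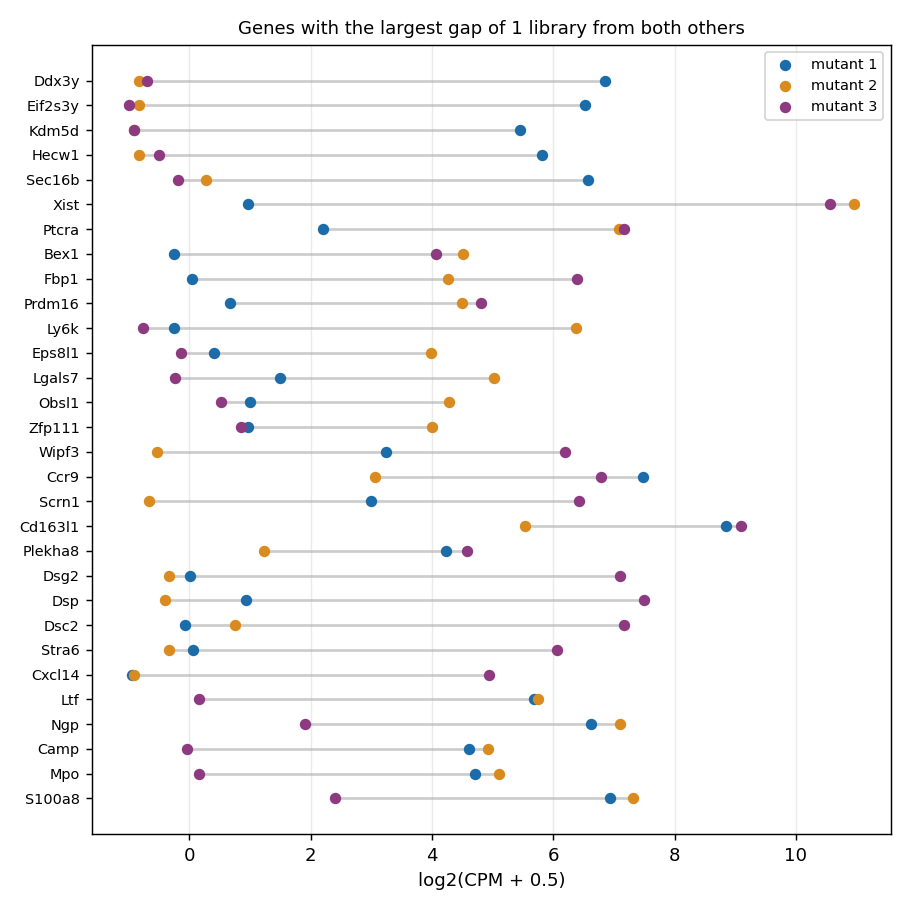
Level on the log2(CPM + 0.5) scale of the genes with the largest gap of 1 library from both others, 5 above and 5 below for each library, in the order mutant 1, mutant 2, mutant 3. Only genes of mean 5 CPM or more were ranked, and genes with clone names are left out. The sex-linked genes lead for mutant 1, the desmosome genes are high in mutant 3 and the neutrophil genes at the bottom are low in mutant 3.

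Genes of red pulp macrophages followed a graded order, with 16 of 17 highest in mutant 1 and all 17 lowest in mutant 3. Of all genes, 36.5% were highest in mutant 1 and 31.7% lowest in mutant 3. Vcam1, which holds red cell precursors and blood cells in place, stood at 666, 233 and 117 CPM, and Hmox1, which breaks down haem, at 446, 213 and 98.4 CPM. The iron exporter Slc40a1 stood at 319, 186 and 34.8 CPM and Spic, the transcription factor of these macrophages, at 80.1, 41.2 and 7.83 CPM. All 18 monocyte and macrophage genes were lowest in mutant 3 too, with Csf1r at 193, 77.2 and 16.3 CPM. Interferon response genes had medians of 4.72, 3.46 and 2.17 on the log2(CPM + 0.5) scale, and 25 of 28 were lowest in mutant 3, beside the same 31.7% of all genes. Isg15 stood at 70.5, 20.2 and 2.62 CPM. Of 24 p53 target genes of mean 1 CPM or more, 20 were highest in mutant 1, against 36.5% of all genes, among them Cdkn1a, which halts the cell cycle, at 241, 87.4 and 27.6 CPM, but Ei24 was even at 109, 109.5 and 107 CPM. The list's median per kilobase was highest in mutant 2, at 24.4, 35.1 and 11.9 TPM.

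Cytotoxic cell genes were sparse apart from Gzma. This granzyme stood at 314, 478 and 225 CPM, while Gzmb stood at 0.826, 0.0960 and 0.0589 CPM, Ncr1 at 0.188, 0.0960 and 0 CPM and Ifng at 0.131, 0 and 0 CPM. Prf1, which opens the target cell membrane, was apart above in mutant 3, at 1.09, 1.06 and 13.0 CPM. The list of mature and regulatory T cells was not sparse. Of its 14 genes of mean 1 CPM or more, 12 reached 1 CPM in every library, as did 11709 of all 12769. Its medians were 4.28, 3.31 and 3.65 on the log2(CPM + 0.5) scale. Within it, the regulatory T cell factor Foxp3 was low, at 0.432, 0.288 and 0.147 CPM. The labelled tissue showed its stromal genes, with the spleen organiser Tlx1 at 10.7, 6.91 and 5.80 CPM and Pecam1 of endothelium at 109, 117 and 91.0 CPM.

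Spread inside the group had some relation to chromosome. For genes of mean 5 CPM or more, the median difference of a library from the mean of the others lay between -0.25 and 0.24 on the log2 scale over all autosomes, and both ends came from mutant 3. Chromosome 5 stood at 0.24 there (679 genes) and chromosome 18 at -0.25 (278 genes). Without protocadherin genes, which lie in clusters on chromosome 18, that value was -0.15 (254 genes). In 134 windows of 20 Mb, 377 of 402 values lay within 0.25 of 0. In mutant 3, chromosome 5 reached 0.61 from 60 to 80 Mb (58 genes) and 0.56 from 140 to 160 Mb (79 genes), chromosome 15 reached 0.46 from 20 to 40 Mb (41 genes), and chromosome 18 stood at -0.40 from 20 to 40 Mb (87 genes). In mutant 1, chromosome 17 stood at -0.45 over its first 20 Mb (50 genes) and chromosome 15 at 0.47 over the same span (37 genes). The protocadherin genes were left out of these windows, and the windows were chosen after the chromosome medians had been seen.

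**Figure D5:**
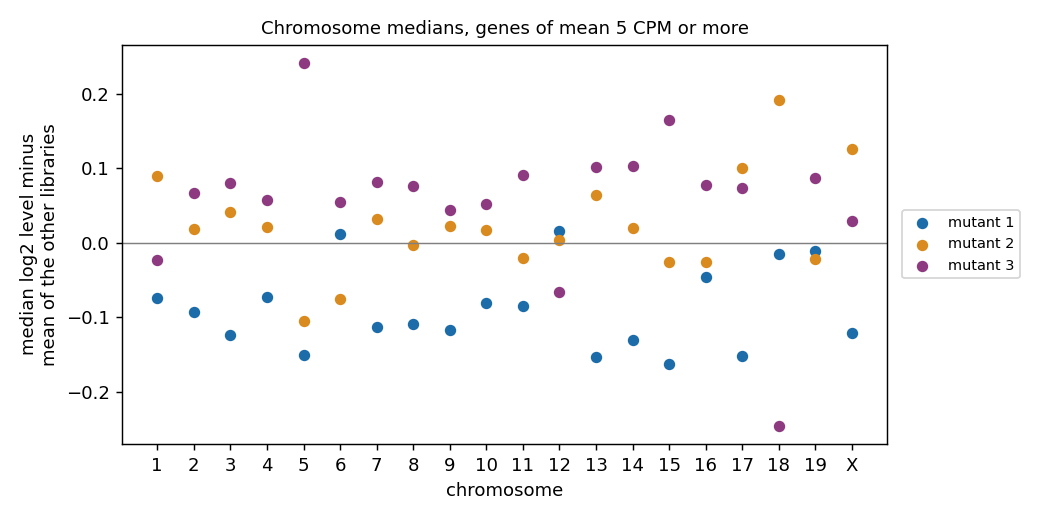
Median over genes of mean 5 CPM or more, per chromosome, of the log2 level in 1 library minus the mean of the other libraries. Chromosome 5 at 0.24 and chromosome 18 at -0.25, both in mutant 3, lie farthest from 0 among the autosomes and X, and the Y chromosome is not drawn.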

How the data were processed

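RNA-seq of whole mouse spleens was used as the authors deposited it, as raw counts per gene and a CPM table holding the same counts times 1 constant per library. The submitters' processing notes name edgeR, Subread 1.4.6 with featureCounts, TopHat2 2.0.12, bcl2fastq 2.17.1.14 and the build mm10. Tool settings and the use of strand are not stated in these notes, so antisense and overlapping genes are uncertain. Genes with identical counts (20 sets of 53 genes at 100 counts or more) were counted once when genes were named; that minimum was raised from 10 after accidental matches were seen.

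Scaling was TMM (edgeR 4.0.16 in R 4.3.3) over the 3 mutant libraries, with 0.5 CPM added before log2. Exon lengths came from GENCODE vM21 for 23536 of 24062 genes (98.0% of counts). A gene of mean 1 CPM or more was apart at 4-fold from both other libraries. The calling function was tested on simulated data with changes larger than 4-fold and less spread than these libraries have. That test cannot show how the calls behave in these libraries. No test was made, since there is 1 group. No wild-type library entered, apart from any part in the constants of the deposited CPM.

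The members and the 34 lists (694 genes, 688 in the table) were chosen with earlier results of these data known. Genes with clone names, such as those with Gm, LOC or Rik, were left out when genes were ranked for naming. The rule for named genes took the 15 highest genes by CPM and by level per kilobase, the 10 of smallest SD at 50 CPM or more, the 5 farthest above and below in each library at 5 CPM or more, the 3 highest and the 2 most variable of each list, Brca1 and Vav1, 188 genes in all. Other genes named in the text, the heart and desmosome genes, the chromosome windows, the removal of protocadherin genes, the 3 promoters and the motif GATAA were chosen after values were seen. Antigen receptor segments were not analysed here, and some list genes are not reported here by name. The alternatives were library size, RLE factors, the deposited CPM, globin removal, other filters and pseudocounts, and each library left out. A check of the printed genes' levels under other scalings was added after seeing the data.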

Additional observations from a re-analysis of the deposited data

How the results depend on the processing

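No paired analysis was possible because a single group was described and no test was made. The pseudocount mattered most for counts of genes apart. With 2 CPM in place of 0.5, 232 genes were apart above and 20 below in mutant 1, 13 above and 7 below in mutant 2, and 66 above and 52 below in mutant 3. With 0.1 CPM, 53 were apart below in mutant 2 and 320 below in mutant 3. A pseudocount of 2 CPM also left 3 B cell, 4 MHC class II and 9 neutrophil genes apart below in mutant 3. Medians of lists near 0 CPM followed the pseudocount by construction: with 0.1 and 2 CPM they averaged -1.77 and 1.32 for fat, -2.01 and 1.20 for liver, -1.52 and 1.21 for mast cell, basophil and eosinophil, -1.66 and 1.20 for NK and cytotoxic, -2.30 and 1.07 for pancreas, and -1.69 and 1.16 for skeletal muscle genes. With 2 CPM the T leukaemia list averaged 3.51 and the homologous recombination list 5.28. The constants of the deposited CPM may rest on all 7 libraries. With that CPM the averages were 7.16 for DNA replication, 7.46 for mitosis, 5.37 for homologous recombination and 3.43 for T leukaemia genes. Library size alone gave -0.35 for chromosome 18 and 0.14 for chromosome 5 in mutant 3.

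Leaving out 1 library at a time, the genes within 1.5-fold numbered 7215 to 9370, more than over 3 libraries because only 2 are compared, and genes at 1 CPM or more in every library 11826 to 12252. The common coefficient of variation ran from 0.393 (without mutant 1) to 0.544 (without mutant 2) and the median SD from 0.206 to 0.355. The homologous recombination list averaged 5.19 to 5.28. Counts of genes apart need 3 libraries and have no such value.

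Of 432 recomputed values of these summaries, 396 stayed within their spread or within 1.5 times. Of these 396, 313 were values of gene lists. The allowance for the mean of a list was the SD of its medians between these same libraries. A list that differed widely between libraries could therefore hardly move, and the count does not measure how robust the results are.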
